A study of Mus musculus with 15 samples.

Results

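The genes that make cholesterol and fatty acids were followed under 1% oxygen in B16.F10, a line of mouse melanoma. The set holds 36 genes, chosen by gene symbol. It comprises 7 enzymes of the mevalonate pathway, 11 enzymes that turn farnesyl diphosphate into cholesterol, 6 genes of sterol control and intracellular sterol transport, 5 enzymes that supply and join acetyl-CoA units, and 7 desaturases and elongases. All 36 were found among the 13172 genes listed for at least 1 group, and all 36 belong to the 12721 genes that were listed for all 5 groups and tested.

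RNA-seq was run on 15 libraries of wild-type cells in 5 groups of 3. Hif1a_siRNA_Dox cells received an siRNA against Hif1a at 25 nM and, 24 h later, doxorubicin at 0.25 µM for 24 h. Hif1a_siRNA cells received the same siRNA without the drug, and Dox cells received the drug without an siRNA. NC_siRNA cells received a negative control siRNA at 25 nM, and Control cells received neither. Hif1a codes for the part of the HIF-1 transcription factor that oxygen destabilises, and doxorubicin is a DNA-intercalating anthracycline that poisons topoisomerase II. No group received the negative control siRNA with doxorubicin, so Hif1a_siRNA_Dox differs from Dox by transfection as well as by the Hif1a siRNA. The time from siRNA to harvest is given only for cells that also received the drug. The labels call the libraries biological replicates without naming separate cultures, and the p-values below cover only the spread among these libraries, which may be technical.

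Cholesterol is built from acetyl-CoA through mevalonate, isoprenoid diphosphates, squalene and lanosterol, and fatty acids are built from acetyl-CoA by way of malonyl-CoA. Most of these enzymes are targets of the sterol regulatory element binding proteins (SREBPs), membrane-bound transcription factors of the endoplasmic reticulum. SCAP escorts SREBPs to the Golgi, where proteases release the active part, and INSIG proteins hold SCAP back when sterols are plentiful. Several steps, among them squalene epoxidation, lanosterol demethylation and acyl-CoA desaturation, consume molecular oxygen.

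Each library held between 23825110 and 28734303 counted reads. Levels are given as CPM, read counts scaled to a common library size with TMM factors, which correct for library composition. Hif1a, the siRNA target, averaged 13.1 ± 1.35 CPM in Hif1a_siRNA_Dox, 17.2 ± 1.57 CPM in Hif1a_siRNA, 142 ± 8.91 CPM in Dox, 274 ± 13.5 CPM in NC_siRNA and 217 ± 13.2 CPM in Control (SD, n = 3 each). All 7 melanocyte markers were listed for every group. None of the 5 leukocyte, 3 endothelial and 4 epithelial markers was found by symbol in any group. The summed melanocyte markers ranged from 29682 to 36513 CPM in Hif1a_siRNA_Dox, from 8997 to 9408 CPM in Hif1a_siRNA, from 39692 to 46325 CPM in Dox, from 8288 to 8956 CPM in NC_siRNA and from 13419 to 14554 CPM in Control. Of 4 fibroblast markers, Col1a1 and Pdgfra were tested, and their sum ranged from 61.8 to 85.8 CPM in Hif1a_siRNA_Dox, from 3.93 to 5.01 CPM in Hif1a_siRNA, from 37.2 to 60.7 CPM in Dox, from 2.49 to 3.08 CPM in NC_siRNA and from 6.22 to 6.62 CPM in Control. Both marker sums were therefore highest in the groups given doxorubicin. Pmel, Tyrp1 and Dct made up most of the melanocyte sum, and the list did not move one way: 5 of its 7 genes rose and 2 fell in Dox against Control, and 4 rose and 3 fell in Hif1a_siRNA_Dox against Hif1a_siRNA. Sox10, which fell in both, averaged 29.9 CPM in Hif1a_siRNA_Dox and 181 CPM in Hif1a_siRNA, and 28.5 CPM in Dox and 199.9 CPM in Control. Tyr also fell in both, with 57.9 CPM in Dox and 78.1 CPM in Control. The part of these markers in the results below was not tested.

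The 36 genes together took up between 0.683% and 0.711% of the reads in Hif1a_siRNA_Dox, between 0.550% and 0.562% in Hif1a_siRNA, between 0.709% and 0.718% in Dox, between 1.37% and 1.53% in NC_siRNA and between 0.851% and 0.919% in Control. Scd2, a stearoyl-CoA desaturase that makes monounsaturated fatty acids, alone took up between 0.787% and 0.891% of the reads in NC_siRNA. Per kilobase of exon, Scd2 was also the most abundant of the set in NC_siRNA, at 1496 CPM per kb, and in Control, at 945 CPM per kb. In Dox and in Hif1a_siRNA_Dox the most abundant per kilobase was Acly, ATP citrate lyase, which cleaves cytosolic citrate to acetyl-CoA. Acly stood at 353 CPM per kb in Hif1a_siRNA_Dox and 382 CPM per kb in Dox, against 67.1 CPM per kb in Control. The least abundant in Control was Elovl6, an elongase of saturated C16 chains, at 1.17 CPM per kb.

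Group means were highest in Hif1a_siRNA_Dox for 7 of the 36 genes, in Hif1a_siRNA for 1 (Acaca), in Dox for 8, in NC_siRNA for 15 and in Control for 5. They were lowest in Hif1a_siRNA_Dox for 7, in Hif1a_siRNA for 18, in Dox for 5, in NC_siRNA for 2 and in Control for 4. The highest group mean exceeded the lowest by 16.5-fold for Insig1, 14.8-fold for Hsd17b7, 13.2-fold for Srebf1, 12.1-fold for Insig2 and 11.7-fold for Scd2. The ratio was smallest for Srebf2, at 1.33. Mvd and Fdps shared one order of group means, but their Control and Dox libraries overlapped, as did their Dox and Hif1a_siRNA_Dox libraries. Acacb and Fasn shared another order, which the sterol enzyme Tm7sf2 also had. Neighbouring groups in that order lay apart for Tm7sf2, but the Hif1a_siRNA_Dox and Dox libraries overlapped for Acacb and Fasn. So did NC_siRNA and Control for Acacb, and Control and Hif1a_siRNA for Fasn. Acat2 and Hmgcs1, which catalyse neighbouring steps, differed in order, and Acat2 had the order of the sterol enzyme Hsd17b7. For Acat2, however, Dox overlapped Hif1a_siRNA_Dox, NC_siRNA overlapped Control, and Control overlapped Hif1a_siRNA.

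**Figure D1:**
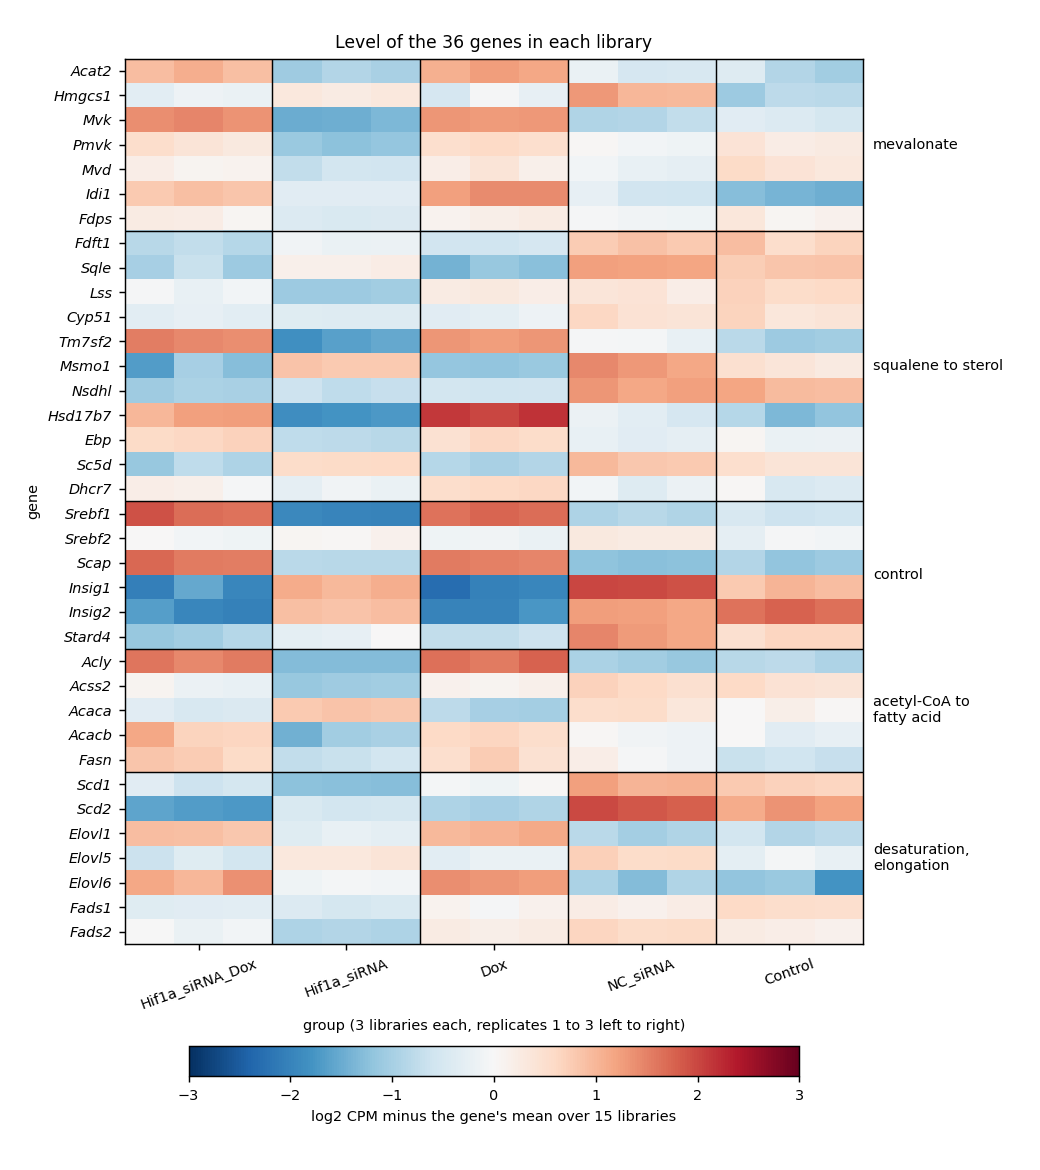
Level of each of the 36 genes in each of the 15 libraries, as log2 CPM minus the gene's mean over all libraries, with genes ordered by role from mevalonate enzymes at the top to desaturases and elongases at the bottom. Insig1, Insig2 and Scd2 are low (blue) in both groups given doxorubicin, whereas Srebf1, Scap and Acly are high (red) there, and Srebf1, Tm7sf2 and Hsd17b7 are lowest in the Hif1a_siRNA libraries.

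Promoter windows of 300 bases, from 250 before to 50 after the annotated start, were taken from RefSeq (GRCm38.p6) and matched 29 of the 36 genes. Fdps, Fdft1, Sqle, Stard4, Scd1, Scd2 and Fads1 had none. Each motif was searched on both strands. The CCAAT box (CCAAT), the recognition sequence of NF-Y, which is known to act beside SREBPs, was present in 24 of the 29 genes (82.8%). It was present in 41.1% of all 27025 genes with a window and in 44.2% of the 9081 tested protein-coding genes. A sterol regulatory element with 1 open base (TCACNCCAC) was present in 1 of the 29 genes, Hmgcs1, and in 1.44% of all genes. The E-box CACGTG was present in 6 (20.7%) against 8.09% of all genes, and in 12.1% of the tested protein-coding genes. ACGTG, a form of the HIF core that also matches within every CACGTG, was present in 9 (31.0%) against 21.8% of all genes. It was present in 30.3% of the tested protein-coding genes. Only this form of the core was searched.

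The windows of 4 genes that behaved differently in these libraries are shown to let their motifs be compared. Capitals mark CCAAT boxes on either strand and, in Hmgcs1, the element TCACCCCAC that starts 137 bases before the annotated start. Hmgcs1 lies at chr13:119690101-119690400 (plus strand), Idi1 at chr13:8885356-8885655 (plus), Hsd17b7 at chr1:169969156-169969455 (minus) and Insig1 at chr5:28071162-28071461 (plus).
Hmgcs1: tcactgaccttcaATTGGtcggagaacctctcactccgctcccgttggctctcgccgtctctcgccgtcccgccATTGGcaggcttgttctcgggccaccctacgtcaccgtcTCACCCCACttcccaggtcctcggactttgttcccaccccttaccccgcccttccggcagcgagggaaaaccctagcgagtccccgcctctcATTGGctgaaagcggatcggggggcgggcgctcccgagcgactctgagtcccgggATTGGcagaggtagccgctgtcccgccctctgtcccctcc
Idi1: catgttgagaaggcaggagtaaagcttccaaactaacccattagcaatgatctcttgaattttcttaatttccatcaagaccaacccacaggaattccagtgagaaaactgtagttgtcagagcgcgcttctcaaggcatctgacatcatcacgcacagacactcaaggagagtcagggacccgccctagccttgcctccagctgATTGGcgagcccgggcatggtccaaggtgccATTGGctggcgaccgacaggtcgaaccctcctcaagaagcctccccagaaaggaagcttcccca
Hsd17b7: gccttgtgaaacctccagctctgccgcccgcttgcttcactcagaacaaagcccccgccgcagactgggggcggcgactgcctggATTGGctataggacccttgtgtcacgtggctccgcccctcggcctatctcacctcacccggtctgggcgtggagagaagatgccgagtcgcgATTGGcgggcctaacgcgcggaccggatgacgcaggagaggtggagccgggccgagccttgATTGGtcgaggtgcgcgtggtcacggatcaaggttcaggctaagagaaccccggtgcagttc
Insig1: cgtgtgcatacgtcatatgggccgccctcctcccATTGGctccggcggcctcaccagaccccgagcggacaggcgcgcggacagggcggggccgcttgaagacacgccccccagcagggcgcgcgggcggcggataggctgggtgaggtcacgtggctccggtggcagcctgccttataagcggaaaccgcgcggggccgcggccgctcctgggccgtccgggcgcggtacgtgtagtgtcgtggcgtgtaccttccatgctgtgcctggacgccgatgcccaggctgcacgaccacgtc
The windows hold 4 CCAAT boxes in Hmgcs1, 2 in Idi1, 3 in Hsd17b7 and 1 in Insig1. Matches are letters in these windows and were not tested for binding.

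Hif1a_siRNA was compared with NC_siRNA to give the response to the Hif1a siRNA in hypoxic cells without the drug. No group received another siRNA against Hif1a, so loss of Hif1a and other effects of this siRNA cannot be told apart. Of the 36 genes, 30 fell and 4 rose at an edgeR adjusted p under 0.05, and 2 were not called. Among all 12721 tested genes, 31.2% fell and 36.4% rose. The median log2 fold change was -0.67 over the 36 genes and 0.06 over all tested genes. A fall of at least 2-fold was called for 13 of the 36, against 10.3% of all tested genes. In bulk RNA, fewer expressing cells and less RNA per cell cannot be told apart.

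Scd2 and Scd1 fell most. Scd2 had 1598, 1513 and 1531 CPM in the Hif1a_siRNA libraries and 8784, 8034 and 7712 CPM in the NC_siRNA libraries. Every Hif1a_siRNA library lay far below every NC_siRNA library, with a log2 fold change of -2.40 ± 0.07 (SE; edgeR adjusted p = 7.92e-19). Scd1, its close paralog, had 271, 266 and 260 CPM in Hif1a_siRNA and 1481, 1290 and 1300 CPM in NC_siRNA, without overlap (log2 fold change -2.35 ± 0.08, edgeR adjusted p = 6.43e-18). Both genes lie on chromosome 19 with 87585 bases between them, and reads shared by such similar genes may have been divided between them in counting. Fads1 and Fads2, the delta-5 and delta-6 desaturases of polyunsaturated fatty acids, also lie on chromosome 19, 81373 bases apart. Fads2 fell by 1.51 and Fads1 by 0.66 on the log2 scale. Of the elongases, Elovl6 and Elovl1 rose, by 0.96 ± 0.14 and 0.62 ± 0.09 on the log2 scale. Elovl5, which lengthens polyunsaturated chains, fell by 0.27.

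Of the 11 squalene and sterol enzymes, 10 fell and none rose. Nsdhl, a dehydrogenase that removes the C4 carboxyl group of sterol intermediates, had 44.3, 39.9 and 42.4 CPM in Hif1a_siRNA and 171, 151 and 160 CPM in NC_siRNA. All Hif1a_siRNA libraries lay well below all NC_siRNA libraries (log2 fold change -1.93 ± 0.08, edgeR adjusted p = 6.38e-16). Tm7sf2, a sterol C14 reductase, fell by 1.56, Hsd17b7, a 3-ketosteroid reductase, by 1.47, Lss, which cyclises squalene epoxide to lanosterol, by 1.39 and Sqle, the squalene epoxidase, by 1.04 on the log2 scale. Dhcr7, the last reductase of the pathway, was not called (0.02 ± 0.11). Fdft1, squalene synthase, fell by 0.98, but 774 of its exon bases overlap Ctsb on the opposite strand. Ctsb, a lysosomal protease with more reads than Fdft1, fell by 0.44 in the same comparison, and whether counting used strand is not given in the sources used here. Cyp51, Srebf1 and Elovl1 share shorter exon stretches with a gene on the other strand, of 166 bases with Akap9, 109 bases with Rai1 and 53 bases with Cdc20. In the same comparison Cdc20 rose by 1.58 ± 0.10, the direction of Elovl1, while Akap9 and Rai1 were not called. Fdps shares 1124 exon bases on the same strand with Gm43738, which was not analysed here. On the opposite strand, Scap shares 985, Hmgcs1 557, Lss 381, Acss2 335 and Idi1 323 exon bases with genes that were likewise not analysed.

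Of the 7 mevalonate enzymes, 6 fell. Pmvk, phosphomevalonate kinase, fell most, with 14.5, 13.2 and 13.9 CPM in Hif1a_siRNA and 31.8, 29.3 and 28.5 CPM in NC_siRNA (log2 fold change -1.11 ± 0.09, edgeR adjusted p = 1.90e-10). Hmgcs1, the synthase of HMG-CoA, fell by 0.81. Idi1, the isomerase of isopentenyl diphosphate, was not called, at 53.3 ± 0.164 CPM in Hif1a_siRNA and 48.7 ± 6.97 CPM in NC_siRNA. Without the first NC_siRNA library its log2 fold change was 0.25 and was called.

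Of the genes that supply and extend acetyl units, Acss2, which makes acetyl-CoA from acetate, had 30.0, 31.7 and 32.4 CPM in Hif1a_siRNA and 107, 101 and 91.9 CPM in NC_siRNA. All Hif1a_siRNA libraries were below all NC_siRNA libraries (log2 fold change -1.67 ± 0.09, edgeR adjusted p = 4.51e-14). Its exons overlap Gss by 395 bases and Ggt7 by 197 bases on the opposite strand. Acacb, the mitochondrial acetyl-CoA carboxylase, fell by 1.07, Fasn, fatty acid synthase, by 0.68 and Acly by 0.27. Acaca, the cytosolic carboxylase, rose instead, with 70.2, 73.4 and 70.6 CPM in Hif1a_siRNA and 58.2, 59.8 and 51.6 CPM in NC_siRNA (log2 fold change 0.34 ± 0.08, edgeR adjusted p = 8.91e-04). The 2 carboxylase genes thus moved in opposite directions.

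Among the 6 control genes, Srebf1, which encodes the SREBP most tied to fatty acid synthesis, had 42.8, 41.7 and 40.8 CPM in Hif1a_siRNA and 86.3, 92.0 and 88.3 CPM in NC_siRNA (log2 fold change -1.09 ± 0.07, edgeR adjusted p = 4.88e-12). The 2 groups did not overlap. Srebf2, which encodes the SREBP most tied to cholesterol synthesis, fell by 0.19 ± 0.07 (edgeR adjusted p = 0.0121). Stard4, a cytosolic sterol carrier, fell by 1.47, Insig1 by 0.90 and Insig2 by 0.32, while Scap rose by 0.40 ± 0.07. The sum of the 6 control genes ranged from 688 to 731 CPM in Hif1a_siRNA and from 1005 to 1068 CPM in NC_siRNA.

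**Figure D2:**
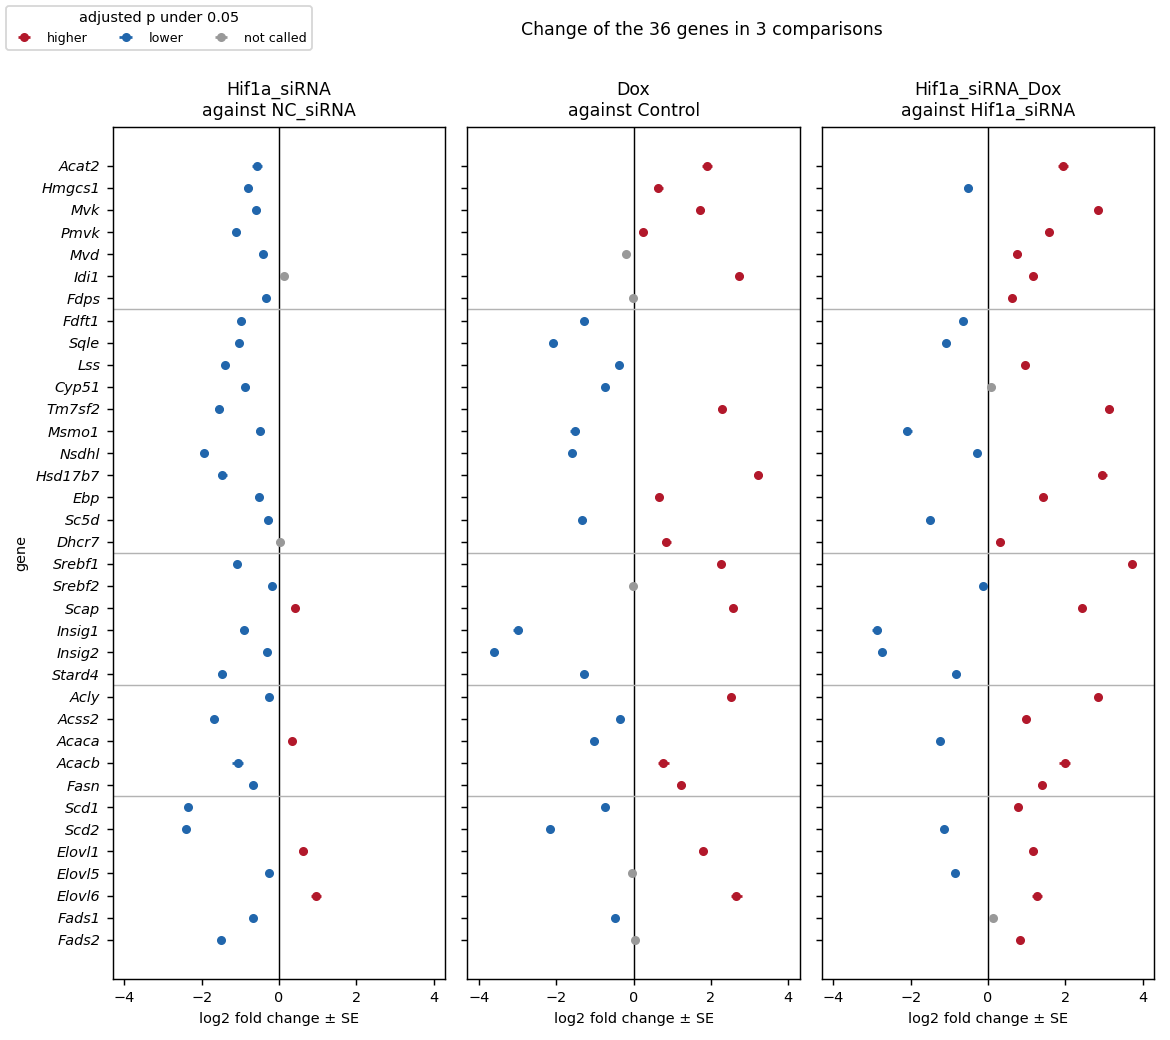
Log2 fold change with its standard error for each of the 36 genes in 3 comparisons, coloured by whether the edgeR adjusted p was under 0.05. In the left panel 30 genes lie below 0, whereas the middle panel holds 16 genes called higher and 15 called lower, and the right panel 21 and 13.

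These genes also differed between cells transfected with the negative control siRNA and untreated cells. No group was transfected without an siRNA, so the parts of transfection and of this siRNA cannot be told apart. Against Control, 18 of the 36 rose and 10 fell in NC_siRNA, where 33.1% of all tested genes rose and 33.7% fell. Hmgcs1 had 350, 283 and 276 CPM in NC_siRNA and 66.2, 81.6 and 81.2 CPM in Control, a 3.97-fold rise (log2 fold change 1.99 ± 0.11, edgeR adjusted p = 7.38e-12). Insig1, a known SREBP target as well as a regulator, had 320, 314 and 301 CPM in NC_siRNA and 139, 164 and 151 CPM in Control (log2 fold change 1.04 ± 0.10). Both genes were higher in every NC_siRNA library than in any Control library. Msmo1, a C4 sterol methyl oxidase, rose by 0.94, Idi1 by 0.92, Stard4 by 0.71, Scd2 by 0.66 and Srebf2 by 0.39 on the log2 scale.

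The 10 genes that fell in NC_siRNA included 4 of the 7 mevalonate enzymes. Mvd, mevalonate diphosphate decarboxylase, fell by 0.62, Mvk, mevalonate kinase, by 0.41, Pmvk by 0.36 and Fdps, which makes farnesyl diphosphate, by 0.28. Insig2 fell by 0.48 and Srebf1 by 0.32. Scap had a log2 fold change of -0.19, which was called with all libraries but not without Control replicate 1 (-0.10) or any 1 of the NC_siRNA libraries, and it was also lost with RLE factors, another scaling for library composition, and with DESeq2 and limma-voom (-0.18 to -0.17). The call of Acat2, the cytosolic acetoacetyl-CoA thiolase, at 0.35, was lost without Control replicate 2 (0.28), Control replicate 3 (0.22) or NC_siRNA replicate 1 (0.24). The call of Nsdhl (0.21) was lost without Control replicate 2 (0.17), Control replicate 3 (0.17) or NC_siRNA replicate 1 (0.17). Upper-quartile factors also ended the calls of Acat2 (0.29) and Nsdhl (0.16). The call of Acly (-0.19) was lost without Control replicate 2 (-0.16) or NC_siRNA replicate 3 (-0.15).

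Because NC_siRNA and Control differ, Hif1a_siRNA was also set beside Control. In that comparison 22 of the 36 genes fell and 9 rose, where 34.2% of all tested genes fell and 40.2% rose, and the median log2 fold change was -0.68. The comparisons with NC_siRNA and with Control share the Hif1a_siRNA libraries, so their values are given side by side. Scd1 had a log2 fold change of -1.96 against Control and -2.35 against NC_siRNA, Scd2 of -1.74 and -2.40, Nsdhl of -1.72 and -1.93, and Lss of -1.69 and -1.39. Hmgcs1, Msmo1, Srebf2 and Elovl5 fell against NC_siRNA and rose against Control, and Acat2, Sc5d, Insig1 and Fasn fell against NC_siRNA and were not called against Control. Hmgcs1 is an example, with 175, 168 and 176 CPM in Hif1a_siRNA, which lay below all NC_siRNA libraries and above all Control libraries (log2 fold change 1.18 ± 0.11 against Control). Srebf1 was 1.41 lower and Insig2 0.80 lower than in Control on the log2 scale, whereas Insig1 was not called (0.14 ± 0.10). Scap, Acaca, Elovl1 and Elovl6 rose in both of these comparisons. Scap's rise of 0.22 against Control was not called without Control replicate 2 (0.16) or replicate 3 (0.19), and the rise of Srebf2, 0.20, was not called without Control replicate 1 (0.13). Neither rise was called with upper-quartile factors, where the values were 0.15 for Scap and 0.13 for Srebf2.

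Dox was compared with Control to give the response to doxorubicin in cells without an siRNA. Of the 36 genes, 16 rose and 15 fell, and 5 were not called. Among all tested genes 43.9% rose and 39.8% fell, so these shares are near the background and are no result about the set. By role, 5 of 7 mevalonate enzymes rose and none fell, and 4 of 11 squalene and sterol enzymes rose and 7 fell. Of the control genes 2 rose and 3 fell, of the genes of fatty acid synthesis 3 rose and 2 fell, and of the desaturases and elongases 2 rose and 3 fell. Differences between roles were not tested. At least 2-fold rises were called for 11 of the 36, against 26.8% of all tested genes, and at least 2-fold falls for 10, against 24.5%.

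The INSIG genes fell most. Insig2 had 13.2, 13.3 and 16 CPM in Dox and 166, 181 and 168 CPM in Control, a 12.1-fold fall (log2 fold change -3.60 ± 0.10, edgeR adjusted p = 6.21e-20). Insig1 had 16.3, 19.8 and 20.6 CPM in Dox and 139, 164 and 151 CPM in Control (log2 fold change -3.0 ± 0.11, edgeR adjusted p = 8.37e-17). No Dox library came near a Control library for either gene. Scap had 296, 287 and 281 CPM in Dox and 54.8, 44.7 and 47.0 CPM in Control (log2 fold change 2.56 ± 0.08, edgeR adjusted p = 4.27e-19). Srebf1 had 512, 553 and 523 CPM in Dox and 117, 107 and 108 CPM in Control (log2 fold change 2.26 ± 0.07, edgeR adjusted p = 1.78e-18). Scap and Srebf1 were thus several-fold higher in all Dox libraries. Srebf2 was not called, with 264, 266 and 250 CPM in Dox and 238, 280 and 273 CPM in Control (log2 fold change -0.02 ± 0.07). Stard4 fell by 1.29 ± 0.10.

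**Figure D3:**
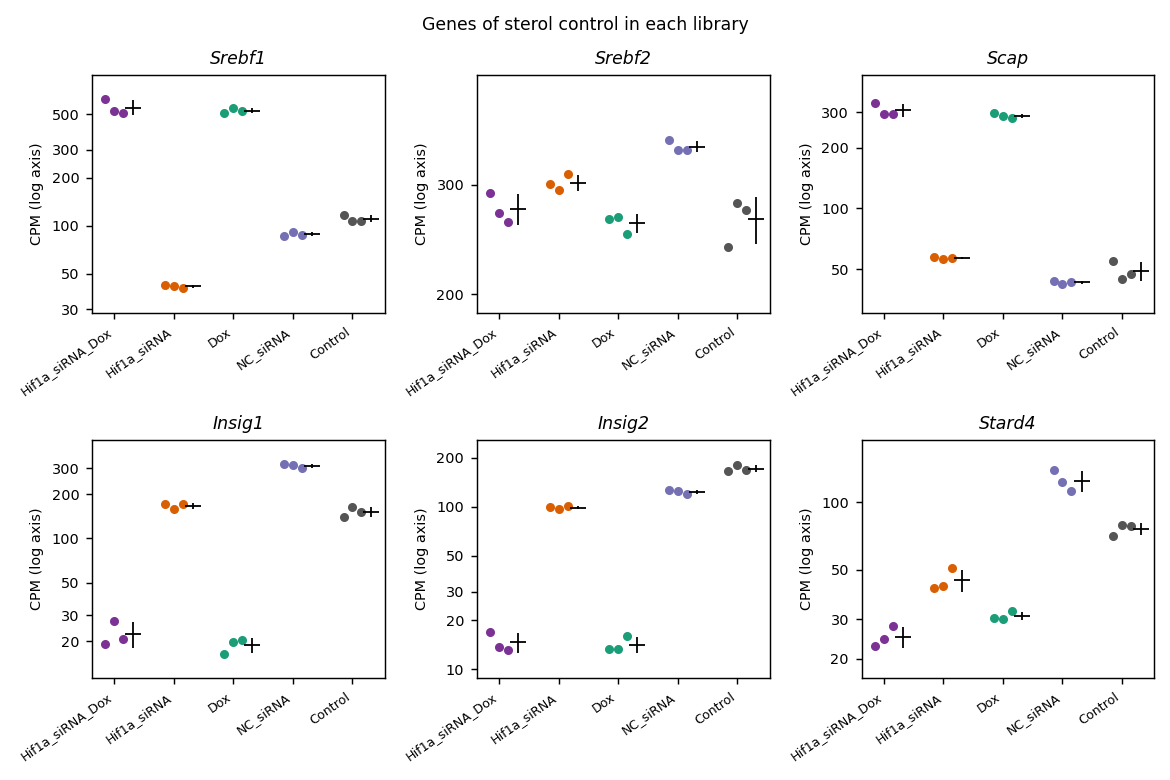
CPM on a log axis of 6 genes of sterol control in every library, with the mean and SD of each group of 3 beside the points. Insig1 and Insig2 lie far lower in both groups given doxorubicin than in the other groups, Scap and Srebf1 show the opposite order, and Srebf2 varies little.

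Among the mevalonate enzymes, Idi1 had 157, 179 and 181 CPM in Dox and 27.8, 25.5 and 24.2 CPM in Control (log2 fold change 2.74 ± 0.09, edgeR adjusted p = 5.26e-18). Acat2 rose by 1.91, Mvk by 1.72 and Hmgcs1 by 0.64 on the log2 scale. Fdps was not called, with 487 ± 25.2 CPM in Dox and 489 ± 49.2 CPM in Control. Mvd had a log2 fold change of -0.19 and was not called with all libraries, but was called lower without Control replicate 3 (-0.25) or Dox replicate 2 (-0.26). Pmvk was called higher at 0.23, and the call was lost without Control replicate 2 (0.19), Control replicate 3 (0.22) or Dox replicate 2 (0.20), and with RLE factors or DESeq2 (0.17 each).

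The sterol enzymes split. Hsd17b7 had 170, 157 and 176 CPM in Dox and 21.7, 15.3 and 17.2 CPM in Control, a 9.28-fold rise (log2 fold change 3.21 ± 0.11, edgeR adjusted p = 7.66e-18). Tm7sf2 rose by 2.28 ± 0.09, Dhcr7 by 0.85 and Ebp, a sterol isomerase, by 0.64. Tm7sf2 shares 532 exon bases on the same strand with Vps51, a gene of endosomal transport that rose by 1.07 ± 0.12 in the same comparison. In the other direction, Sqle had 47.3, 56.9 and 52.6 CPM in Dox and 208, 226 and 227 CPM in Control (log2 fold change -2.07 ± 0.09, edgeR adjusted p = 3.94e-16). Every Dox library lay far below every Control library for Sqle. Nsdhl fell by 1.60, Msmo1 by 1.53, Sc5d, a sterol C5 desaturase, by 1.32, Fdft1 by 1.28, Cyp51, the lanosterol demethylase, by 0.74 and Lss by 0.38. Ctsb, which overlaps Fdft1, rose by 0.75 in this comparison.

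In fatty acid synthesis, Acly had 2002, 1873 and 2173 CPM in Dox and 358, 369 and 336 CPM in Control (log2 fold change 2.51 ± 0.07, edgeR adjusted p = 1.56e-19). Fasn rose by 1.22 ± 0.09 and Acacb by 0.77 ± 0.14, whereas Acaca fell by 1.01 ± 0.09 and Acss2 by 0.35 ± 0.08. Acly alone therefore made up most of the summed level of these 5 genes, which ranged from 2254 to 2506 CPM in Dox and from 577 to 621 CPM in Control. Scd2 had 1169, 1115 and 1176 CPM in Dox and 4784, 5616 and 5097 CPM in Control (log2 fold change -2.16 ± 0.07, edgeR adjusted p = 1.32e-18), and Scd1 fell by 0.75. Elovl6 had 49.4, 47.1 and 45.3 CPM in Dox and 8.29, 8.73 and 5.45 CPM in Control (log2 fold change 2.66 ± 0.14, edgeR adjusted p = 1.88e-14), and Elovl1 rose by 1.78. All 3 genes with library values here had groups that lay apart. Elovl5 and Fads2 were not called.

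Hif1a_siRNA_Dox was compared with Hif1a_siRNA to give the response to doxorubicin in cells that had received the Hif1a siRNA. Of the 36 genes, 21 rose and 13 fell, where 42.6% of all tested genes rose and 41.6% fell. The median log2 fold change was 0.75 over the 36 genes and 0.04 over all tested genes. Srebf1 rose most, with 621, 527 and 510 CPM in Hif1a_siRNA_Dox and 42.8, 41.7 and 40.8 CPM in Hif1a_siRNA, a 13.2-fold rise (log2 fold change 3.73 ± 0.08, edgeR adjusted p = 1.72e-21). With the drug it averaged 553 CPM in Hif1a_siRNA_Dox and 529 CPM in Dox. Without the drug it averaged 41.8 CPM in Hif1a_siRNA and 111 CPM in Control. Tm7sf2 had 101, 93.9 and 91.1 CPM in Hif1a_siRNA_Dox and 9.64, 11.2 and 12.0 CPM in Hif1a_siRNA (log2 fold change 3.12 ± 0.10, edgeR adjusted p = 1.26e-18). Vps51, its overlapping neighbour, rose by 1.72 ± 0.12. Hsd17b7 rose by 2.95 ± 0.11, Acly by 2.85 ± 0.07, Mvk by 2.84 ± 0.09 and Scap by 2.43 ± 0.07.

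Insig1 had 19.3, 27.6 and 20.7 CPM in Hif1a_siRNA_Dox and 172, 157 and 171 CPM in Hif1a_siRNA (log2 fold change -2.88 ± 0.11, edgeR adjusted p = 1.17e-16). Insig2 fell by 2.75 ± 0.09, Msmo1 by 2.09 ± 0.12, Sc5d by 1.51 ± 0.09 and Stard4 by 0.83 ± 0.10. None of these groups overlapped. Srebf2 had a log2 fold change of -0.14 ± 0.07 (edgeR adjusted p = 0.0478), and this call was not stable. It was lost without Hif1a_siRNA_Dox replicate 3 (-0.11), with a replicate block (edgeR adjusted p = 0.0554), with RLE factors (-0.13), with DESeq2 (-0.13), with protein-coding genes only (-0.13) and with the compared groups only (-0.14). With upper-quartile factors the value was 0.0067. Dhcr7, at 0.30 ± 0.11, was not called without Hif1a_siRNA replicate 1 (0.21), Hif1a_siRNA replicate 3 (0.25), Hif1a_siRNA_Dox replicate 1 (0.26) or Hif1a_siRNA_Dox replicate 2 (0.22).

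**Figure D4:**
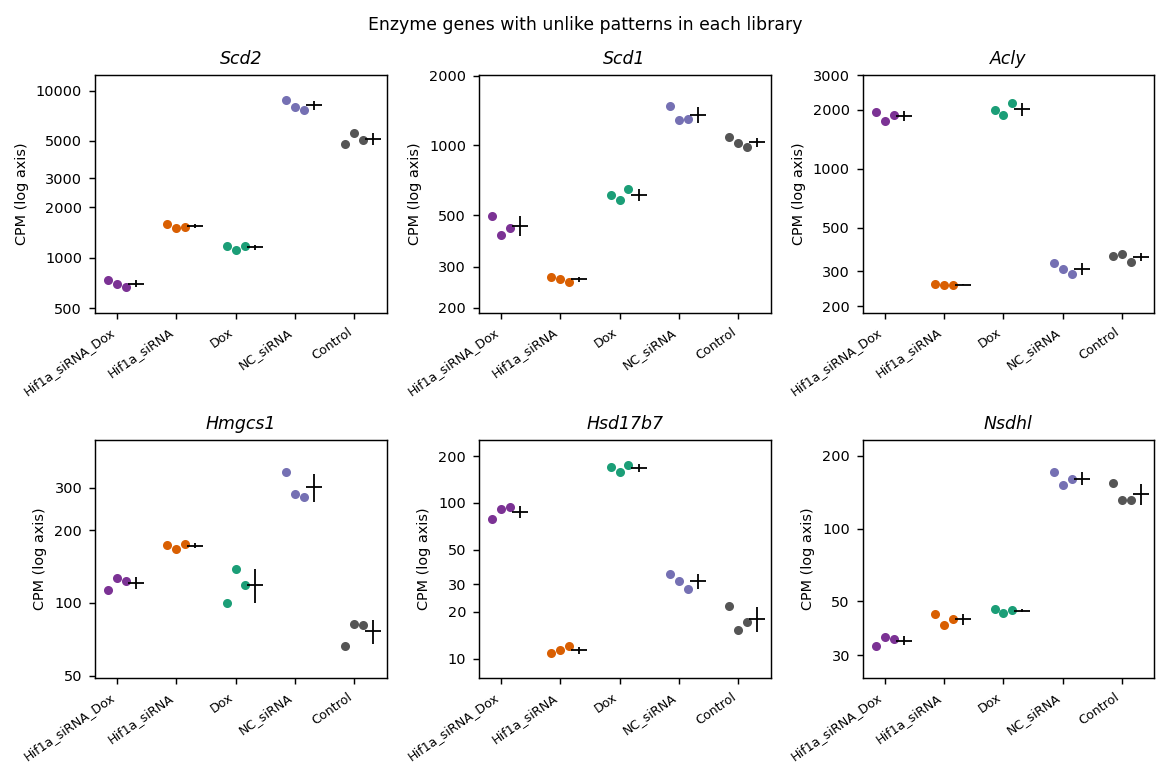
CPM on a log axis of 6 enzyme genes in every library, with the mean and SD of each group of 3 beside the points. Scd2 is lowest in Hif1a_siRNA_Dox and highest in NC_siRNA, Acly is high in both groups given doxorubicin, Hmgcs1 is highest in NC_siRNA and lowest in Control, and Nsdhl is low in all 3 groups given the Hif1a siRNA or doxorubicin.

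The 2 doxorubicin comparisons use separate libraries. By their calls, 15 of the 36 genes rose in both and 10 fell in both, where 34.8% of all tested genes rose in both and 32.6% fell in both, so these counts are near the background. The 15 that rose were Acat2, Mvk, Pmvk, Idi1, Tm7sf2, Hsd17b7, Ebp, Dhcr7, Srebf1, Scap, Acly, Acacb, Fasn, Elovl1 and Elovl6. The 10 that fell were Fdft1, Sqle, Msmo1, Nsdhl, Sc5d, Insig1, Insig2, Stard4, Acaca and Scd2. Hmgcs1 fell after the Hif1a siRNA (-0.51 ± 0.11) and rose without siRNA (0.64 ± 0.11). Lss, Acss2 and Scd1 did the reverse, with rises of 0.96, 0.98 and 0.76 after the Hif1a siRNA and falls of 0.38, 0.35 and 0.75 without siRNA on the log2 scale. Gss and Ggt7, which share exon bases with Acss2, rose by 1.18 and 1.92 after the Hif1a siRNA and by 1.34 and 1.18 without siRNA.

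The difference between the 2 doxorubicin effects was tested directly, as the effect after the Hif1a siRNA minus the effect without siRNA. It was above 0 for 21 of the 36 genes and below 0 for 7, where 26.3% and 32.3% of all tested genes were called (58.6% in either direction), and its median was 0.61 over the 36 genes and -0.06 over all tested genes. The baseline of the first effect had been transfected and that of the second had not, so transfection and loss of Hif1a cannot be told apart in this difference. The same difference equals the change from Dox to Hif1a_siRNA_Dox minus the change from Control to Hif1a_siRNA. Over the 36 genes these 2 changes had median log2 fold changes of -0.12 and -0.68. A low level in Hif1a_siRNA therefore raises the difference. Scd1 had a difference of 1.51 ± 0.10 (edgeR adjusted p = 2.33e-11), Srebf1 of 1.47 ± 0.10 (edgeR adjusted p = 2.52e-11) and Lss of 1.34 ± 0.10 (edgeR adjusted p = 1.58e-10). On the other side, Idi1 had a difference of -1.57 ± 0.12 (edgeR adjusted p = 3.99e-10), Elovl6 of -1.40 ± 0.19 (edgeR adjusted p = 1.27e-06) and Hmgcs1 of -1.15 ± 0.15 (edgeR adjusted p = 1.89e-06). For Insig1, Scap and Srebf2 the difference was not called, with 0.12 ± 0.15, -0.12 ± 0.10 and -0.12 ± 0.09, while Insig2 had a difference of 0.85 ± 0.13.

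**Figure D5:**
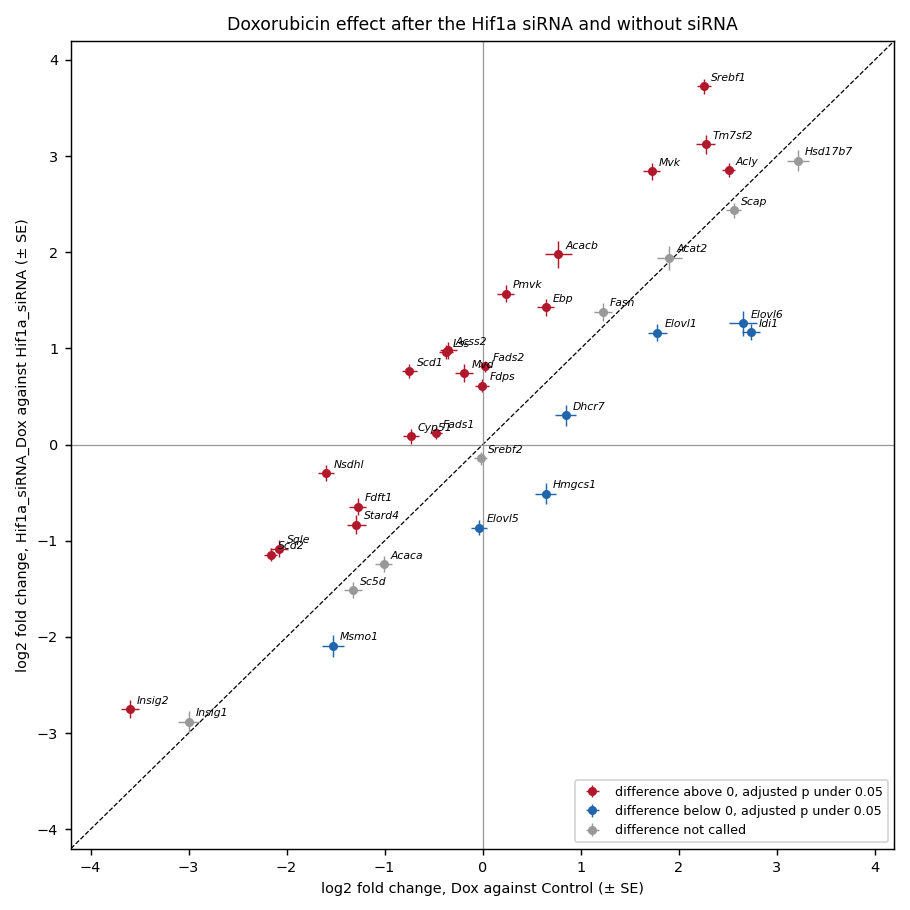
Log2 fold change with doxorubicin after the Hif1a siRNA (vertical axis) against that without siRNA (horizontal axis) for the 36 genes, with standard errors, where the dashed line marks equal effects. Srebf1, Scd1 and Lss lie above the line, Idi1, Elovl6 and Hmgcs1 lie below it, and Insig1, Scap and Srebf2 lie on or near it.

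Hif1a_siRNA_Dox was compared with Dox to ask what the Hif1a siRNA, together with its transfection, changed in cells given the drug. Of the 36 genes, 2 rose and 13 fell, where 21.5% of all tested genes rose and 20.8% fell, and no change reached 2-fold, as 2.54% of all tested genes fell and 0.739% rose by that much. Hsd17b7 had 78.4, 91.8 and 93.6 CPM in Hif1a_siRNA_Dox and 170, 157 and 176 CPM in Dox (log2 fold change -0.93 ± 0.10, edgeR adjusted p = 1.59e-07). Scd2 had 739, 692 and 670 CPM in Hif1a_siRNA_Dox and 1169, 1115 and 1176 CPM in Dox (log2 fold change -0.72 ± 0.07, edgeR adjusted p = 1.32e-08). Both genes were lower in all Hif1a_siRNA_Dox libraries. Idi1 fell by 0.52 ± 0.09, Dhcr7 by 0.46 ± 0.11, Scd1 by 0.45 ± 0.07 and Nsdhl by 0.41 ± 0.08. Acaca rose by 0.51 ± 0.09 and Sqle by 0.36 ± 0.09.

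Of the control genes in this comparison, only Stard4 was called, at -0.31 ± 0.10, and its call was lost without Dox replicate 3 (-0.27) or Hif1a_siRNA_Dox replicate 1 (-0.25), and with the compared groups only (-0.30, edgeR adjusted p = 0.0544). Srebf1 (0.06 ± 0.07), Srebf2 (0.07 ± 0.07), Scap (0.09 ± 0.07) and Insig2 (0.05 ± 0.10) were not called. Insig1, at 0.26 ± 0.11, was not called with all libraries and was called higher without Hif1a_siRNA_Dox replicate 1 (0.36) or replicate 3 (0.32). The calls of Fdft1 (-0.25) and Acss2 (-0.22) were also lost without single libraries: Dox replicate 3 and Hif1a_siRNA_Dox replicates 1 and 3 for Fdft1 (-0.24 to -0.22), and Dox replicates 1 and 3 and Hif1a_siRNA_Dox replicates 2 and 3 for Acss2 (-0.22 to -0.17). Of the 30 genes that fell in Hif1a_siRNA against NC_siRNA, 11 fell here as well, 1 (Sqle) rose and 18 were not called. Among all 3972 tested genes that fell in the first comparison, 30.7% fell in the second, and 9.57% of all tested genes fell in both.

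Against Control, the combined treatment left 15 of the 36 genes higher and 18 lower, where 43.4% of all tested genes rose and 41.2% fell. Insig2 had 17, 13.8 and 13.2 CPM in Hif1a_siRNA_Dox and 166, 181 and 168 CPM in Control (log2 fold change -3.55 ± 0.09, edgeR adjusted p = 4.53e-20). Scd2 fell by 2.88 ± 0.07, Insig1 by 2.74 ± 0.11 and Nsdhl by 2.01 ± 0.08. Scap rose by 2.65 ± 0.08, Elovl6 by 2.52 ± 0.14, Tm7sf2 by 2.43 ± 0.09, Acly by 2.39 ± 0.07 and Srebf1 by 2.32 ± 0.07. Stard4 fell by 1.60 ± 0.10, and Srebf2 was not called (0.05 ± 0.07).

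Other genes of the pathway were read from 4 lists. Their counts stand against 36.4% of all tested genes that rose and 31.2% that fell in Hif1a_siRNA against NC_siRNA, and 43.9% that rose and 39.8% that fell in Dox against Control. Of 8 genes of SREBP processing and sterol-dependent degradation in the endoplasmic reticulum, 5 rose and 3 fell in Hif1a_siRNA against NC_siRNA, and 5 rose and 1 fell in Dox against Control. Mbtps2, the site-2 protease that releases SREBPs, rose by 0.92 ± 0.12 in Hif1a_siRNA against NC_siRNA and fell by 2.83 ± 0.14 in Dox against Control. Mbtps1, the site-1 protease, fell by 0.30 in Hif1a_siRNA against NC_siRNA and was not called in Dox against Control (0.05 ± 0.07). Of 12 tested genes of sterol transport and storage, 3 rose and 7 fell in Hif1a_siRNA against NC_siRNA, and 6 rose and 5 fell in Dox against Control, the last being near the background. Abca1, the cholesterol exporter induced by liver X receptors, fell by 1.18 ± 0.16 in Hif1a_siRNA against NC_siRNA and rose by 4.08 ± 0.18 in Dox against Control. Soat1, which esterifies cholesterol, fell in both, by 1.07 and 2.05.

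Of 11 genes of the isoprenoid branch, 6 rose and none fell in Hif1a_siRNA against NC_siRNA, and 2 rose and 5 fell in Dox against Control. Ggps1, which makes geranylgeranyl diphosphate, rose by 0.93 ± 0.08 in Hif1a_siRNA against NC_siRNA and fell by 1.88 ± 0.09 in Dox against Control. Of 19 tested genes of fatty acid supply and elongation, 7 rose and 9 fell in Hif1a_siRNA against NC_siRNA, and 9 rose and 8 fell in Dox against Control, the last being near the background. Slc25a1, the citrate carrier that feeds ATP citrate lyase, fell by 2.08 ± 0.08 in Hif1a_siRNA against NC_siRNA and by 0.61 ± 0.08 in Dox against Control. Me1, the malic enzyme that supplies NADPH, fell by 1.58 and 1.07 in these comparisons. In Hif1a_siRNA against NC_siRNA the median log2 fold change was 0.34 over the isoprenoid genes and 0.39 over the genes of SREBP processing. It was -0.50 over the genes of sterol transport and storage and -0.28 over those of fatty acid supply and elongation. Over the 36 genes it was -0.67, and over all tested genes 0.06.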

How the data were processed

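RNA was extracted from 15 samples of B16.F10 cells and made into libraries with a TruSeq Stranded mRNA kit, per the labels' protocols. The submitters' processing notes name mm10, StringTie 2.1.3b, HISAT2 2.1.0, Bowtie2 2.3.4.1, Trimmomatic 0.38 and FastQC 0.11.7, without the strand setting of the counting. The authors deposited raw read counts per gene, not normalized, in 1 table per library.

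The 12721 genes listed for all 5 groups were fitted together with edgeR 4.0.16 in R 4.3.3 (TMM factors, groups as the only term, no block, two-sided robust quasi-likelihood tests with 10 residual degrees of freedom), and the 451 genes missing from a group were left out. The filter (filterByExpr, 10 reads, total 15) removed 0 genes. Benjamini-Hochberg adjustment ran over all tested genes within each of 8 comparisons, with a threshold of 0.05. Standard errors are the log2 fold change divided by the square root of F. Between 24 and 28 gene IDs repeated per table with identical values were kept once, and 1491 symbols were filled by gene ID from RefSeq. The common biological coefficient of variation was 0.0907. Library totals limit precision for weakly expressed genes.

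The 36 genes and the other lists were chosen with earlier results of these data known. Named genes are the 6 control genes, the 4 largest called changes each way per comparison (3 for the difference) whose groups do not overlap and whose higher group averages 5 CPM or more, Hif1a, and further members as examples of their role, chosen after their values were seen. The other pathway genes, overlapping genes and promoters shown were picked likewise. Alternatives were RLE and upper-quartile factors, DESeq2 1.42.0, limma-voom 3.58.1, an adjusted p under 0.01, no filter, 1 CPM in 3 libraries, a replicate block, the compared groups only, genes listed for those groups, 11131 protein-coding nuclear genes, and each library left out. Simulated counts with 200 changed genes were used to test the fit. Far fewer genes changed in them than in Dox against Control, so they do not test the scaling under such wide change.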

Additional observations from a re-analysis of the deposited data

Results flagged for a closer look

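The effect of doxorubicin after the Hif1a siRNA (Hif1a_siRNA_Dox against Hif1a_siRNA) differed from its effect without siRNA (Dox against Control) in 28 of the 36 genes, by a test of the difference itself in edgeR with an adjusted p under 0.05. Among all tested genes 58.6% passed the same test. In log2 units the difference was below 0 for 7 genes, with -1.57 for Idi1, -1.40 for Elovl6, -1.15 for Hmgcs1, -0.83 for Elovl5, -0.62 for Elovl1, -0.56 for Msmo1 and -0.54 for Dhcr7. It was above 0 for 21 genes. Among the mevalonate enzymes it was 1.34 for Pmvk, 1.12 for Mvk, 0.93 for Mvd and 0.62 for Fdps. Among the sterol enzymes it was 1.34 for Lss, 1.30 for Nsdhl, 0.99 for Sqle, 0.85 for Tm7sf2, 0.82 for Cyp51, 0.78 for Ebp and 0.63 for Fdft1. Among the control genes it was 1.47 for Srebf1, 0.85 for Insig2 and 0.45 for Stard4. In fatty acid synthesis it was 1.33 for Acss2, 1.21 for Acacb and 0.35 for Acly, and among the desaturases 1.51 for Scd1, 1.02 for Scd2, 0.78 for Fads2 and 0.60 for Fads1. The parts of transfection, of time since transfection and of Hif1a loss in these differences cannot be told apart.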

How the results depend on the processing

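The counts of the 36 genes called higher and lower in the 8 comparisons stayed within 1.5 times under every alternative. With single libraries left out 30 were lower in Hif1a_siRNA against NC_siRNA each time, and the counts ranged from 15 to 16 higher in Dox against Control, and from 10 to 13 lower in Hif1a_siRNA_Dox against Dox. Each value was recomputed under 11 alternatives and with 6 libraries left out in turn (12 for the difference of the doxorubicin effects). The alternative without a filter repeats the main fit, because the filter removed 0 genes, and so adds no check. Of 234 called values, 220 kept their call each time and 14 lost it at least once. The calls of Pmvk in Dox against Control (0.17 and 0.17), and of Fdft1 (-0.20 and -0.20) and Acss2 (-0.17 and -0.17) in Hif1a_siRNA_Dox against Dox, were lost with RLE factors and with DESeq2. Mvd in Dox against Control became a called fall with both (-0.26 and -0.26). Upper-quartile factors raised the median of all genes by 0.13 in Dox against Control and 0.15 in Hif1a_siRNA_Dox against Hif1a_siRNA. Srebf2 in the second of these was 0.0067 with those factors against -0.14 with TMM. It was the 1 value that changed sign under an alternative, among values called in either fit. Sign changes of values called in neither fit were not counted. Nsdhl lost its call in the same comparison with upper-quartile factors (-0.15). The cause was not tested.

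Libraries with the same replicate number did not deviate together: 0 of 30 same-numbered pairs had a correlation above 0.1 (range -0.16 to 0.0872). A replicate block ended 1 call, that of Srebf2 in Hif1a_siRNA_Dox against Hif1a_siRNA (-0.14, edgeR adjusted p = 0.0554).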
